A study of Mus musculus with 12 samples.

Results

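Public beta CDR3s of spleen and tumor-draining lymph node (tdLN) were taken as the amino acid CDR3 sequences of the T cell receptor beta chain (TRBC) that were listed, with 1 or more UMIs of at least 3 reads, in all 4 spleen libraries and all 4 tdLN libraries. There were 3139 such sequences, 0.734% of the 427397 beta CDR3s of the 8 libraries, and the whole series listed 487371. Presence in those 8 libraries chose the sequences, so counts of presence in spleen and tdLN are given as description and were not tested.

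The libraries were made from RNA of CD8+ T cells that had been isolated with microbeads from tumors, spleens and tdLNs of mice labelled WT, which bore tumors of a head and neck squamous carcinoma model according to the study. Mice received control IgG, IL10-Fc, the anti-CSF1R antibody or the BF10 fusion protein, in which IL-10 is joined to an antibody that blocks the CSF-1 receptor. The labels give 30 mg/kg of every agent, in 3 doses at intervals of 3 days, while the study's methods scaled doses by molecular weight. Each of the 12 libraries, 1 for each of 4 treatments and 3 tissues, was 1 mixture from 3 mice, so no treatment had a replicate and no difference between single libraries was tested. The study's methods name C57BL/6 as the background of its head and neck model and give the mice it bought as 6 to 8 weeks old. The labels give neither for these libraries, and whether the tissues of a treatment came from the same mice is not given in the sources used here. The cell type label of every library names CD8 T cells, the tdLN titles omit CD8, and receptor sequences alone could not check it.

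A beta chain is assembled in the thymus by joining a V, a D and a J segment. Bases are trimmed from the segment ends and others are added without a template, and the CDR3 spans the joint and makes most of the contact with the antigenic peptide. Different rearrangements can encode 1 amino acid sequence, which is called convergent recombination, and CDR3s found in many animals are called public.

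The sequences below show how single public CDR3s were encoded. They are printed 5′ to 3′ from the conserved cysteine codon through the conserved phenylalanine codon of the J segment, and capitals mark bases matched by neither the germline V nor the germline J end. The germline ends themselves came from the GRCm38 (mm10) genome and the RefSeq annotation, on the plus strand of chromosome 6, and are shown to read the joints against. The D segments are printed whole.
Trbv17 end, chr6:41163540-41163556: tgtgctagcagtagaga
Trbj1-1 start, chr6:41533864-41533883: caaacacagaagtcttcttt
Trbj2-7 start, chr6:41543810-41543828: ctcctatgaacagtacttc
Trbd1, chr6:41533201-41533212: gggacagggggc
Trbd2, chr6:41542163-41542176: gggactgggggggc

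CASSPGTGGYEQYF had the highest mean UMI share over the 8 libraries and is shown because it was built from many V segments around the same D letters. These 6 forms were the ones listed in most of the 12 libraries, tumors included, with ties broken by UMIs. Each was listed in 8 or 9 of the 12, and in 5 to 7 of the spleen and tdLN libraries.
Trbv3 form a: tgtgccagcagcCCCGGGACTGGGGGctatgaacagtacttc
Trbv3 form b: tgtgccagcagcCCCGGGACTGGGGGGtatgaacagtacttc
Trbv16 form a: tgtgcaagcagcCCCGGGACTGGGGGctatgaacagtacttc
Trbv16 form b: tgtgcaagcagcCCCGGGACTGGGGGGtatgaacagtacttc
Trbv12-1 form: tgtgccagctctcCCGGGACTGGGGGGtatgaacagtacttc
Trbv12-2 form: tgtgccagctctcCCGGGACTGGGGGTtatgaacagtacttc

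The next 6 forms are shown because each was itself listed in all 8 spleen and tdLN libraries with the same V, J and bases. They were the 6 of 73 such forms with the most UMIs. Between 0 and 6 of their bases came from neither germline end.
Trbv1 with Trbj1-1, 14 residues: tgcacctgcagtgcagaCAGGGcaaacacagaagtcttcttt
Trbv4 with Trbj2-7, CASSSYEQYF: tgtgccagcagctcctatgaacagtacttc
Trbv13-3 with Trbj2-3, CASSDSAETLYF: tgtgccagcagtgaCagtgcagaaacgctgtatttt
Trbv16 with Trbj1-3, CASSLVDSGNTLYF: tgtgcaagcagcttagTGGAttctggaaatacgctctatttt
Trbv16 with Trbj2-4, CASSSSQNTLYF: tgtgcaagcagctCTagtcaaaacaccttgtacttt
Trbv16 with Trbj1-2, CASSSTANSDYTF: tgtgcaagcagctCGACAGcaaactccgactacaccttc

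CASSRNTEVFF held the highest mean share over the tumor libraries. Some of its Trbv17 with Trbj1-1 forms, 4 that were large in the control IgG tumor and 1 in the anti-CSF1R tumor, are shown because they differ only at the joint. They are not all of its large forms. In form b every base was matched by a germline end.
Trbv17 form a: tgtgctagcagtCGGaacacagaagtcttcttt
Trbv17 form b: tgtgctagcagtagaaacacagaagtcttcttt
Trbv17 form c: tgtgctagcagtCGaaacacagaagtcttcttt
Trbv17 form d: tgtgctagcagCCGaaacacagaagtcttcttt
Trbv17 form e: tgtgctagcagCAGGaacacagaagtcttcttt

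The libraries held 32784 to 210616 TRBC UMIs, with the lowest total in the anti-CSF1R tumor and the highest in the anti-CSF1R tdLN. A UMI marks 1 reverse-transcribed molecule, so more cells of a clone and more receptor RNA per cell cannot be told apart. A count of 0 allowed a share of up to 0.00142% (anti-CSF1R tdLN) to 0.00915% (anti-CSF1R tumor), from 3 UMIs. The anti-CSF1R and BF10 tdLN libraries stood apart in reads per UMI. In them 10.4% and 8.26% of UMIs had at least 7 reads, against 35.3% to 69.6% in the other 10.

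Most beta CDR3s were private to 1 library. Of the CDR3s of spleen and tdLN, 333614 were listed in 1 of the 8 libraries, 48632 in 2, 18870 in 3, 9948 in 4, 5994 in 5, 4066 in 6, 3134 in 7 and 3139 in all 8. The public CDR3s, under 1 CDR3 in 100, carried 14.4% of the UMIs of the 8 libraries, while those of 1 library carried 40.1%. The share of UMIs was lowest, 5.41%, for CDR3s of 6 libraries.

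**Figure D1:**
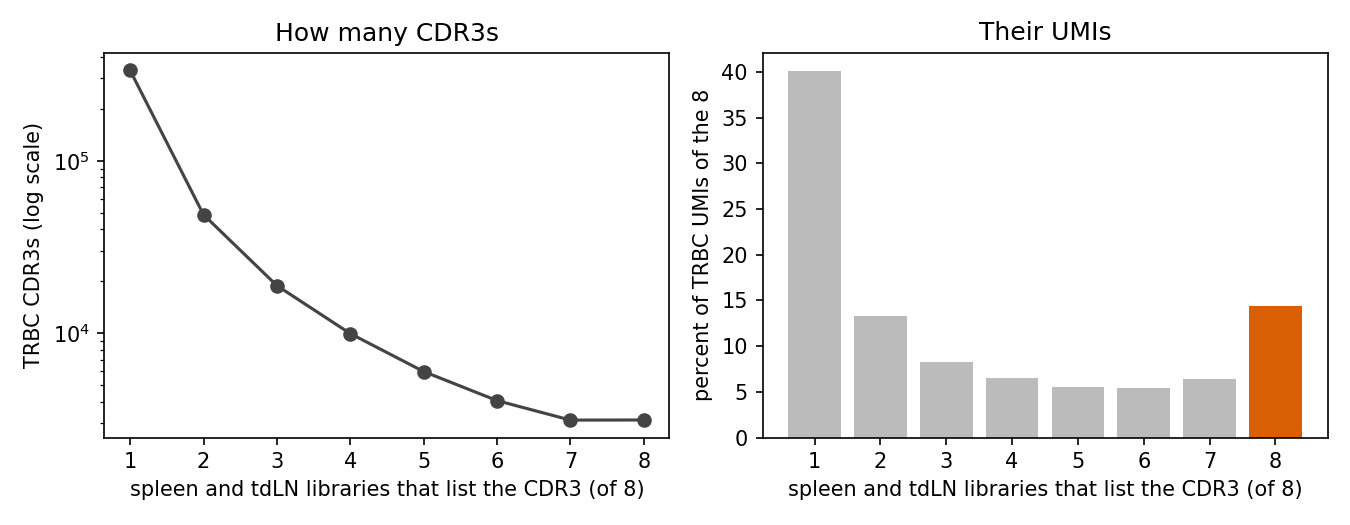
Left, the number of TRBC CDR3s (log scale) by how many of the 8 spleen and tdLN libraries list them; right, the percent of all TRBC UMIs of the 8 libraries that these CDR3s hold, with the public CDR3s in orange. The number falls from 333614 in 1 library to 3134 in 7 and 3139 in 8, and the UMI share goes from 40.1% down to 5.41% in 6 libraries and is 14.4% in 8.

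A public CDR3 had 11 to 840 UMIs over the 8 libraries, with a median of 47. In 1484 of them (47.3%) the lowest library held 1 UMI, so that many sat at the limit of the rule, and 148 had at least 10 UMIs in every library. The CDR3s just outside the rule, listed in 7 of the 8, had a median of 24 UMIs (range 7 to 384). The member with the lowest mean share, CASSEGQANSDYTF, had 1, 2, 2 and 1 UMIs in the spleens of control IgG, IL10-Fc, anti-CSF1R and BF10 mice and 1, 1, 1 and 2 in their tdLNs. Treatments are given in this order throughout.

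Among the CDR3s of 7 libraries, the 5 with the highest mean share had most of their spleen and tdLN UMIs in 1 or 2 tdLN libraries. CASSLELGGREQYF had 2, 14, 1 and 0 UMIs in spleen, 3, 238, 14 and 111 in tdLN and 2, 1447, 339 and 358 in tumor. A CDR3 of 14 residues that joined Trbv12-1 to Trbj2-1 had 363 UMIs in the BF10 tdLN and at most 5 in any of the other 7 spleen and tdLN libraries. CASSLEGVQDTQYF was at 80 UMIs in the control IgG and in the BF10 tdLN, and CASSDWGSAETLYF and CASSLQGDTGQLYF were highest in the BF10 tdLN, with 99 and 108.

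The most abundant public CDR3s mostly used Trbj2-7, which encodes the ending YEQYF, and were present in quantity in all 8 libraries. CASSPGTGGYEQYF had 108, 90, 136 and 118 UMIs in spleen, 65, 112, 115 and 96 in tdLN and 8, 97, 14 and 191 in tumor. As a share of UMIs it lay between 0.0470% and 0.0879% in spleen and tdLN. The control IgG tumor, at 0.00769%, and the anti-CSF1R tumor, at 0.0427%, were below that range, the IL10-Fc tumor, at 0.0746%, within it and the BF10 tumor, at 0.109%, above it. A public CDR3 of the same length and J, with Trbv16 as leading V, had 62, 78, 79 and 64 UMIs in spleen, 38, 66, 62 and 56 in tdLN and 42, 68, 12 and 113 in tumor. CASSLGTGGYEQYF had 44, 59, 62 and 74 in spleen, 46, 67, 50 and 46 in tdLN and 4, 45, 10 and 47 in tumor. These 3 sequences share the residues G, T, G and G in a row, a reading of the Trbd2 letters shown above.

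Of the 10 public CDR3s with the highest mean share, 8 used Trbj2-7 and the other 2 were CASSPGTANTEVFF (Trbj1-1) and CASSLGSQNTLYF (Trbj2-4). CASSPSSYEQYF had 16, 41, 23 and 36 UMIs in spleen and 49, 173, 88 and 159 in tdLN, so every tdLN library was above every spleen library in count. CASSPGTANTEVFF had 42, 42, 144 and 29 in spleen and 15, 21, 39 and 32 in tdLN, and its anti-CSF1R spleen library was the highest by far. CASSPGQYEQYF (lowest, median and highest of the 8 libraries 40, 63 and 93 UMIs), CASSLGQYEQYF (33, 56 and 102), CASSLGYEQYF (36, 54 and 73) and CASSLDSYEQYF (33, 50 and 58) had overlapping spleen and tdLN counts.

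The number of nucleotide forms was high. Over the 8 libraries the public CDR3s were encoded by 60399 nucleotide sequences, and a single one by 2 to 107 of them with a median of 16 (quartiles 12 and 24). The median was 10 for the CDR3s of 7 libraries. Forms and UMIs moved together across the 3139 sequences (Spearman's rho 0.75, a description, as both grow with the UMIs sampled). The most forms were found for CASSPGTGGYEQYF with 107, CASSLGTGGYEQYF with 104, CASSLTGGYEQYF with 98, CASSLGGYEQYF with 85 and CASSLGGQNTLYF with 84.

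Within 1 library a public CDR3 had few forms. The median number of forms per public CDR3 was 2 to 4 in the spleen and tdLN libraries, and the mean 2.86 to 5.32. Among other CDR3s with at least 11 UMIs over the 8 libraries, as many as the public CDR3 with fewest had, the median over the 8 was 7 (n = 14907). Among other CDR3s with at least 47 UMIs, it was 12 (n = 409).

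The rule fixed the presence of each amino acid sequence in all 8 libraries, but it did not ask for a shared nucleotide form. With V and J kept, the public CDR3s had 75200 forms, of which 75.9% were listed in a single one of the 8 libraries and 73 in all 8. Those of 1 library held 48.3% of the public UMIs and those of all 8 held 1.22%. Only 63 public CDR3s (2.01%) had any form in all 8 libraries, and 915 had no form in more than 2. The most abundant form differed in every one of the 8 libraries for 1284 public CDR3s (40.9%) and was the same in all 8 for 3.

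The forms shared most widely had the fewest joint bases outside the segments. Forms of 1 library had a median of 9 bases matched by neither the V nor the J end, against 7.5 in 2 libraries, 7 in 3, 6 in 4 and in 5, and 5 in 6, 7 and 8. The share of forms with no base outside V, D and J was 9.27% in 1 library, 20.3% in 2, 27.1% in 3, 30.1% in 4 and 37.3% to 38.4% in 5 to 8. A D match needed at least 4 bases, and forms matched by V and J alone were counted too. A base added without a template that happens to match a germline end is read as germline in this count. Forms listed in more libraries also held more UMIs each.

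Public CDR3s were shorter than the rest. Their mean length was 13.25 residues against 14.20 for all other CDR3s of spleen and tdLN, a difference of −0.95, and 2425 (77.3%) had 12 to 14 residues. At 15 or more residues were 414 public CDR3s (13.2%), against 42.4% of the others. The lengths ran from 9 to 16, while other CDR3s reached 25 residues and beyond. Against other CDR3s with at least 11 UMIs, whose mean length was 13.57, the difference was −0.32, so the size of the gap depended on which sequences they were set against. Within single libraries the difference lay between −0.84 and −0.75 residues, tumors included.

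The 4 shortest public CDR3s, of 9 residues, all used Trbj2-7. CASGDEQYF had 3, 4, 8 and 8 UMIs in spleen and 5, 18, 4 and 5 in tdLN. Most of these UMIs were 1 form of Trbv13-2, listed in all 8 libraries, that is matched by germline V and J to the last base, and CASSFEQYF (Trbv29) and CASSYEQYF (Trbv4) also had such forms in 6 of the 8 libraries. The form of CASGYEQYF listed in most of the 12 libraries had 1 base outside the germline ends.
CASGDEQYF: tgtgccagcggtgatgaacagtacttc
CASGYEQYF: tgtgccagcggGtatgaacagtacttc
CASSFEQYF: tgtgctagcagttttgaacagtacttc
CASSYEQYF: tgtgccagcagctatgaacagtacttc

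The 72 longest public CDR3s had 16 residues. The one with the highest share among them joined Trbv12-1 most often, with Trbj2-1, and had 30 forms from 13 V segments. It had 3, 22, 13 and 16 UMIs in spleen and 6, 7, 16 and 14 in tdLN, and it was listed in the IL10-Fc and BF10 tumors with 8 and 18.

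The joint was also closer to germline. In the most abundant form of each CDR3, a median of 7 bases was matched by neither germline end in the public CDR3s, 8 in those of 7 libraries and 11 in the others. With the longest D match removed, the medians were 2, 2 and 5. No base was left outside V, D and J in 797 public CDR3s (25.4%), in 17.6% of those of 7 libraries and in 2.26% of the others. Among other CDR3s with at least 11 UMIs the share was 12.1%, and with at least 47 UMIs it was 17.1%.

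**Figure D2:**
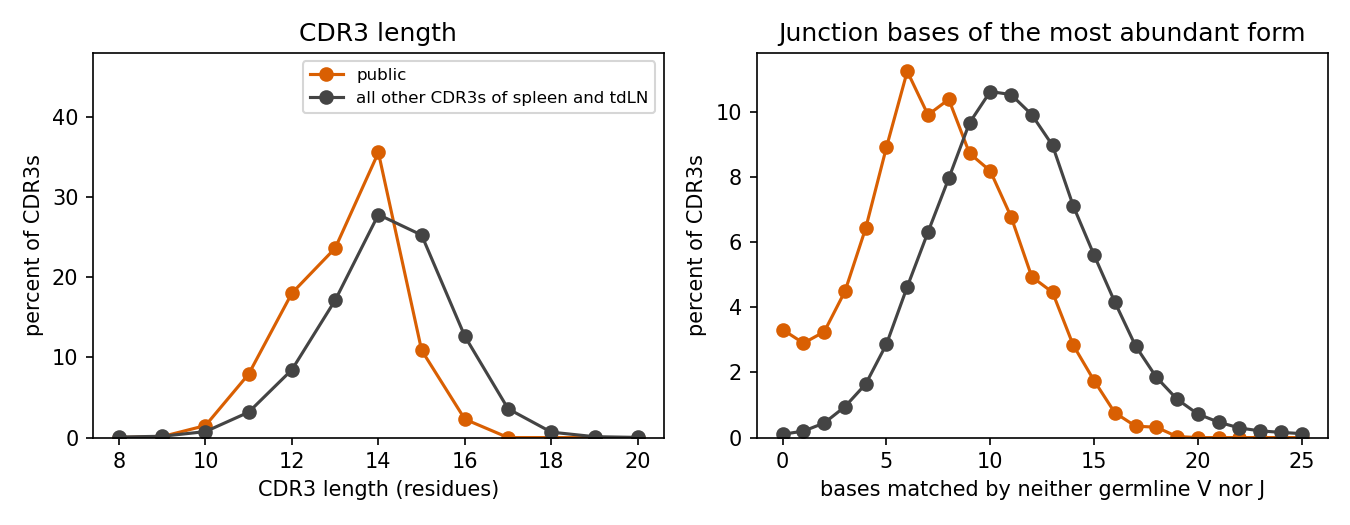
Left, the percent of CDR3s at each length in residues; right, the percent at each number of joint bases matched by neither germline V nor J in the most abundant form, for the 3139 public CDR3s (orange) and all other CDR3s of spleen and tdLN (grey). Public CDR3s lie to the left in both panels, with means of 13.25 against 14.20 residues and medians of 7 against 11 bases.

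Public CDR3s differed from the others in their leading V, the V with more of a CDR3's UMIs than any other V. The leading V could hold a small part of them, 13.6% in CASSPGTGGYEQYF. Trbv16 led 563 public CDR3s (17.9%, against 9.51% of the other CDR3s), Trbv29 559 (17.8% against 8.55%) and Trbv3 363 (11.6% against 6.02%). Trbv19 led 271 (8.63% against 8.99%) and Trbv12-2 210 (6.69% against 3.65%). The 3 V segments with the largest differences were Trbv29, higher by 9.26 percentage points, Trbv16, higher by 8.43, and Trbv1, with 2.23% against 8.19%. These are shares of CDR3s and were not tested, since members are not replicates. As a share of UMIs per spleen or tdLN library, Trbv29 held 8.79% to 17.8% in public CDR3s. In the others it held 6.41% to 13.6%, so the ranges overlapped. Trbv16 held 13.0% to 16.1% against 8.91% to 10.9%, and Trbv1 1.43% to 1.80% against 6.13% to 7.79%.

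A public CDR3 was seldom tied to 1 V. It was listed with 1 to 17 V segments, with a median of 9, and 152 had 1 V. Of those 152, 70 were the Trbv1 sequences, whose CDR3 begins CTCS where most others begin CASS. The start CASS was found in 2855 public CDR3s (91.0%) against 63.8% of the others. V calls were those of the portal. Trbv12-1 and Trbv12-2 have the same CDR3 end, tgtgccagctctctc, and so do Trbv13-1 and Trbv13-3, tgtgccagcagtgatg. Trbv2 and Trbv5 also share theirs, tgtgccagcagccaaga. Calls between the 2 segments of such a pair rest on sequence upstream of the CDR3.

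The J was nearly always 1, as 3046 public CDR3s (97.0%) had a single J. Trbj2-7 led 857 (27.3%, against 18.1% of the others), Trbj2-1 403 (12.8% against 13.3%), Trbj2-5 366 (11.7% against 10.7%), Trbj2-4 311 (9.91% against 9.46%) and Trbj2-3 264 (8.41% against 9.48%). The largest differences were in Trbj2-7, higher by 9.17 percentage points, Trbj1-5, with 0.860% against 3.42%, and Trbj1-4, with 4.78% against 7.24%.

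For residue composition the first residues, CASS in most CDR3s, and the last 6 were cut off, so some V and J residues stayed in. Glycine then made up 28.2% of the residues of public CDR3s against 24.4% in the others. Leucine made up 12.6% against 7.74% and serine 10.4% against 7.71%. The leucine includes that of the start CASSL, in 34.1% of public CDR3s, which V ends such as that of Trbv16 encode. Alanine made up 4.56% against 6.78% and glutamic acid 0.754% against 3.22%. A cysteine inside the CDR3 was present in 70 public CDR3s (2.23%), all of them the CTCS sequences, against 8.62% of the others. Hydrophobic residues at both positions 6 and 7, counted from the conserved cysteine, were present in 0.0956% against 1.21%.

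The share of TRBC UMIs held by public CDR3s was similar in spleen and tdLN. It was 15.2% (95% Wilson interval 14.98 to 15.34), 15.1% (14.95 to 15.3), 15.7% (15.5 to 15.9) and 14.9% (14.7 to 15.1) in spleen, and 14.6% (14.4 to 14.8), 13.6% (13.5 to 13.8), 13.4% (13.3 to 13.6) and 13.6% (13.4 to 13.7) in tdLN. Each tdLN library was below the spleen library of its treatment. These intervals cover counting error only, and UMIs of 1 clone are not independent cells.

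In the tumors, which the rule did not use, the shares were 17.6% (17.4 to 17.9), 15.2% (15.0015 to 15.39), 9.43% (9.11 to 9.75) and 14.8% (14.6 to 14.9). The control IgG tumor was above, and the anti-CSF1R tumor below, all 8 spleen and tdLN libraries. Both tumor libraries were dominated by few CDR3s. CDR3s with at least 0.1% of a library numbered 74, 21, 75 and 4 in the tumors and held 51.1%, 5.41%, 62.0% and 0.628% of their UMIs, and 5, 4, 9 and 2 of them were public, with 10.2%, 1.29%, 3.59% and 0.254% of the UMIs.

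Without these expanded CDR3s the public share was 15.1% (14.8 to 15.4), 14.7% (14.5 to 14.9), 15.4% (14.7 to 16.01) and 14.6% (14.4 to 14.8) in the tumors. The intervals of the control IgG and anti-CSF1R tumors then overlapped, and the 4 tumors lay within the range of the spleens and tdLNs computed the same way, 13.4% to 15.8%. This comparison was chosen after the values had been seen.

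**Figure D3:**
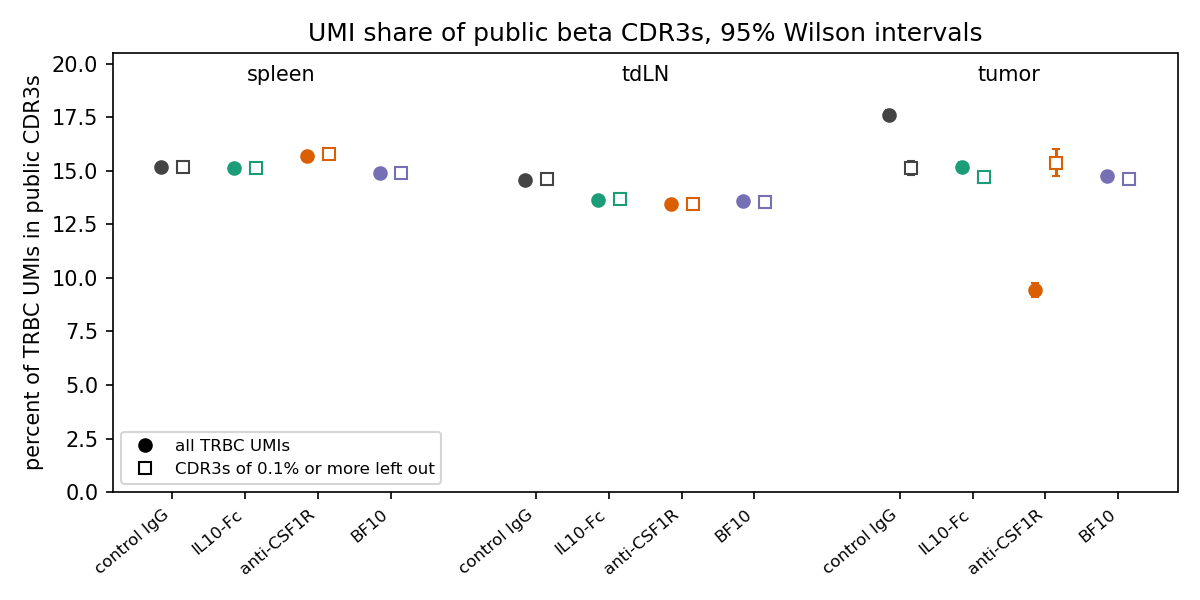
Percent of TRBC UMIs in public CDR3s in each of the 12 libraries, by tissue and treatment, with 95% Wilson intervals (counting error only). Circles use all UMIs and squares leave out CDR3s with 0.1% or more of a library; the tumor circles run from 9.43% (anti-CSF1R) to 17.6% (control IgG) and the tumor squares from 14.6% to 15.4%.

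All but 83 public CDR3s were listed in at least 1 tumor library, and the libraries differed widely. At 32784 UMIs drawn from every library, the total of the smallest, an expected 23.98% of them were listed in the control IgG tumor (background over all CDR3s of spleen or tdLN 0.865%), 58.3% in the IL10-Fc tumor (background 2.83%), 9.30% in the anti-CSF1R tumor (background 0.307%) and 62.7% in the BF10 tumor (background 3.25%). As numbers these were 753, 1829, 292 and 1968 public CDR3s. With all UMIs used, 946, 2569, 292 and 2868 were listed. The same draw from the spleen and tdLN libraries, which the rule fixed at complete presence before thinning, gave 62.9% to 68.1%.

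The 4 tumor libraries differed in how many CDR3s of any kind they held at this depth. Drawn to 32784 UMIs they held 6178, 21179, 2298 and 24485 CDR3s, with 12.1, 2.88, 14.3 and 2.48 UMIs per CDR3 over all UMIs. Public CDR3s were 12.2%, 8.64%, 12.7% and 8.04% of the CDR3s of the 4 tumors, against 8.22% to 9.34% in spleen and 7.52% to 8.63% in tdLN. So the tumors that listed the fewest public CDR3s had the largest share of public ones among the CDR3s they held.

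The wider a CDR3 was shared outside the tumor, the more often it was listed in it. In each of the 4 tumors the percent listed was higher at every step from 1 to 8 libraries. The CDR3s of 7 libraries were listed at 10.9%, 34.1%, 3.89% and 38.7% in the 4 tumors. Public CDR3s exceeded them in 4 of 4 tumors, with a mean of 38.6% against 21.9% (difference 16.7 percentage points). They also had more UMIs per listed CDR3, 11.7 against 6.83, and more nucleotide forms per listed CDR3, 2.34 against 1.53, again in 4 of 4 tumors. In the anti-CSF1R tumor these were close, at 10.6 against 10.2 UMIs and 1.15 against 1.12 forms. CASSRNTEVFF alone held 660 of the 3090 public UMIs there and 5732 of 18336 in the control IgG tumor. The UMIs per listed CDR3 of these 2 tumors therefore leaned on 1 sequence. The two-sided exact sign-flip test gave p = 0.125 for each of the 3 measures (adjusted 0.125), the smallest value that 4 tumors allow. Public CDR3s held more UMIs in spleen and tdLN than those of 7 libraries, and the part of that in the listing was not tested.

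**Figure D4:**
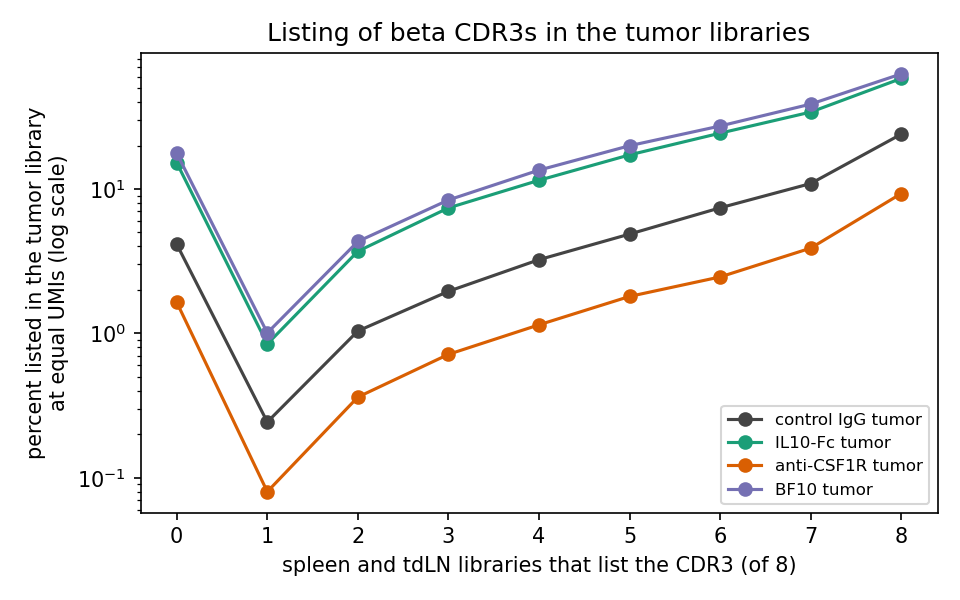
Percent of beta CDR3s expected in each tumor library at 32784 UMIs (log scale) by how many of the 8 spleen and tdLN libraries list them. From 1 library to 8 every tumor's line climbs, ending at 23.98%, 58.3%, 9.30% and 62.7%; the CDR3s at 0 are listed in tumors alone, so they are in the plot only because some tumor holds them.

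Over the 4 tumors with all UMIs used, 83 public CDR3s were listed in none, 510 in 1, 1601 in 2, 817 in 3 and 128 in all 4. Among all beta CDR3s of the series 171 were listed in all 4 tumors, and 128 of these (74.9%) were public. Put the other way, 4.08% of public CDR3s and 0.511% of those of 7 libraries were listed in every tumor. The absent ones with the highest share were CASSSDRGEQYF, with 2, 4, 8 and 5 UMIs in spleen and 19, 16, 7 and 3 in tdLN, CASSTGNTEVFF and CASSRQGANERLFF. Each of these 3 had 64 UMIs over the 8 libraries.

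The nucleotide forms found in a tumor were mostly not those of the same treatment's spleen and tdLN. Of the forms of public CDR3s in the 4 tumors (1346, 7602, 337 and 12096), 28.5%, 27.7%, 41.2% and 27.3% were also listed in the spleen or tdLN library of the same treatment. They held 56.6%, 34.5%, 62.4% and 32.5% of the tumor's public UMIs. No spleen or tdLN library of any treatment listed 44.6%, 48.2%, 37.7% and 49.9% of the forms.

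Similarity between libraries was measured with the Morisita-Horn index, which is 1 for equal composition and 0 for none shared. For public nucleotide forms it averaged 0.141 between spleen and tdLN of 1 treatment (range 0.116 to 0.196) and 0.108 between those of different treatments (0.0806 to 0.139), a ratio of 1.30. The one-sided exact permutation test over the 24 pairings of treatments gave p = 0.0417 (adjusted over 3 tissue pairs 0.125). For tumor and tdLN the ratio was 1.19 (exact permutation p = 0.375, adjusted 0.375), and for tumor and spleen 1.14 (p = 0.292, adjusted 0.375).

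For all other CDR3s the same ratios were 15.3, 3.98 and 2.32 for tumor and tdLN, spleen and tdLN, and tumor and spleen (exact permutation p = 0.0417 for each, adjusted 0.0417, the smallest that 24 pairings allow). Whether public and other CDR3s differed in these ratios was not tested. At the amino acid level public CDR3s of spleen and tdLN had an index of 0.750 within and 0.744 between treatments, where presence in all 8 libraries was fixed by the rule. Across the 3139 sequences, the mean share in spleen and that in tdLN had a Spearman's rho of 0.65.

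Some public CDR3s reached clonal sizes in tumors. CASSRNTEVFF had 3, 14, 4 and 4 UMIs in spleen, 70, 126, 46 and 44 in tdLN and 5732, 466, 660 and 254 in tumor. This was 5.51%, 0.358%, 2.01% and 0.145% of the tumor libraries, and it was the public CDR3 with most UMIs in 3 of the 4 tumors. All 4 tdLN counts were above all 4 spleen counts and below all 4 tumor counts.

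The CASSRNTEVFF molecules came from several rearrangements. Of the forms printed above, a and b had 1843 and 924 UMIs in the control IgG tumor, and c and d 568 and 298. Form b, without any base outside the germline ends, had the most UMIs in the IL10-Fc and BF10 tumors, with 384 and 199, and had 233 in the anti-CSF1R tumor. There form e had 265 UMIs, against 1, 4 and 0 in the control IgG, IL10-Fc and BF10 tumors. Form a had 1 UMI in the IL10-Fc tumor and 0 in the anti-CSF1R and BF10 tumors. In tdLN form b had 29, 95, 11 and 23 UMIs.

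Forms a to d differ by few bases, and none of them was 10-fold below another in the control IgG tumor, the limit at which forms 1 base apart were merged as likely errors in an alternative. In the control IgG tumor 8 forms of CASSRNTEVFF had at least 10 UMIs, and the largest held 32.2% of its UMIs there. Of the public CDR3s with at least 1 form of 10 UMIs in that tumor, 14 of 191 had more than 1 such form. The corresponding counts were 4 of 53, 1 of 63 and 3 of 56 in the IL10-Fc, anti-CSF1R and BF10 tumors.

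Of the other 4 public CDR3s with at least 0.1% of the control IgG tumor, 3 had 92.4% to 99.0% of their UMIs there in 1 form, and the fourth, of 15 residues, had 74.5%. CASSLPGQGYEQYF had 2816 UMIs there, nearly all (2789) in 1 Trbv19 form that had 9 UMIs in the control IgG tdLN and 0 in the other 10 libraries. In the other 3 tumors it had 15, 0 and 11 UMIs, and in spleen and tdLN its leading V was Trbv2, with 18.3% of its UMIs. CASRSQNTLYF had 427, 3, 0 and 21 UMIs in tumor, with 97.4% of the control IgG count in 1 form.
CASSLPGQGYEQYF, Trbv19 form: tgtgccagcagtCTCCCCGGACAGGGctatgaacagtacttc

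The public CDR3 of 15 residues, which joined Trbv26 to Trbj1-4, was large in both the control IgG and the IL10-Fc tumor, with 1530 and 564 UMIs, against 0 and 6 in the anti-CSF1R and BF10 tumors. The forms were different ones. In the control IgG tumor 1140 UMIs had form a below, and in the IL10-Fc tumor 453 had form b and 9 had form a. Form b was listed in no other library. In spleen this CDR3 had 1, 5, 2 and 4 UMIs and in tdLN 1, 10, 1 and 3.
Trbv26 form a: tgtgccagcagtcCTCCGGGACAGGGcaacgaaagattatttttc
Trbv26 form b: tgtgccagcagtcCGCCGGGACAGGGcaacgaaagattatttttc

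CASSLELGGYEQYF had 7, 3, 135 and 4 UMIs in tumor, all 135 of the anti-CSF1R tumor in 1 Trbv3 form. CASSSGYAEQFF had 0, 484, 0 and 2, with 98.3% of the IL10-Fc count in 1 Trbv14 form. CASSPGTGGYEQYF, by contrast, passed 0.1% of the BF10 tumor with 191 UMIs spread over 36 forms, the largest with 26.7%.

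The tdLN libraries were compared with the spleen libraries sequence by sequence, a test chosen after the data had been seen. The 4 treatments served as 4 pairs, and the error joins the spread of the tissue difference between treatments with a dispersion shared across CDR3s. A CDR3 with UMIs in 1 library alone could therefore be called. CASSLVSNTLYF, which was not public, had 215 UMIs in the BF10 tdLN and 0 in every other spleen and tdLN library (edgeR adjusted p = 6.06e-10). Such calls rest on 1 treatment and are part of the counts for all CDR3s below. edgeR's quasi-likelihood test was fitted with treatment as a block to all 7731 beta CDR3s with at least 20 UMIs over the 8 libraries. At an adjusted p (Benjamini-Hochberg over all 7731) under 0.05, 193 were higher in tdLN (2.5%) and 7 higher in spleen (0.0905%), 2.59% in either direction. Of the 3139 public CDR3s, 3019 passed the minimum of 20 UMIs and 120 did not. Of these 28 were higher in tdLN (0.927%) and 3 in spleen (0.0994%), a share in tdLN below that of all CDR3s tested. Because the rule required presence in both tissues, a CDR3 found in 1 tissue alone could not be a member. The median log2 fold change of tdLN over spleen was 0.01 for the public and 0.21 for all CDR3s tested.

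The call depended on the fit. Without the treatment block 2 public CDR3s were higher in tdLN and 0 in spleen, with 158 at an unadjusted p under 0.05. Without TMM scaling 15 and 8 were called. The median log2 fold change then moved from 0.01 to −0.19 for the public CDR3s and from 0.21 to 0.01 for all CDR3s. Leaving out the anti-CSF1R libraries gave 8 and 1, the BF10 libraries 16 and 1 and the IL10-Fc libraries 15 and 0. DESeq2 called 11 and 1. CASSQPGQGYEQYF and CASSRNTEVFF were called in every one of these fits, and 7 public CDR3s in every fit that kept the block.

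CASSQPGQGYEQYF had 2, 1, 1 and 1 UMIs in spleen and 15, 78, 93 and 38 in tdLN, so the tissues were far apart. Its log2 fold change was 5.17 ± 0.54 (SE, here and below worked back from the test's F statistic, edgeR adjusted p = 4.28e-18). In tumor it had 2, 9, 0 and 1 UMIs. Trbv2, whose CDR3 end is also that of Trbv5, held 96.9% of its tdLN UMIs, in several forms that differ at the ends of the same Trbd1 letters. In tdLN form a below had 7, 34, 36 and 6 UMIs and form b 0, 2, 48 and 2. Form c had 8, 18, 0 and 9.
Trbv2 form a: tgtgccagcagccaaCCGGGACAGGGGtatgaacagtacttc
Trbv2 form b: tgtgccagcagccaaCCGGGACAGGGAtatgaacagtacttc
Trbv2 form c: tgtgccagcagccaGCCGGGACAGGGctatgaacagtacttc

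For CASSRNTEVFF the log2 fold change was 3.60 ± 0.39 (edgeR adjusted p = 6.39e-17). A CDR3 of 15 residues that joined Trbv4 to Trbj2-3 had 7, 4, 1 and 8 UMIs in spleen and 18, 52, 35 and 106 in tdLN (3.28 ± 0.45, edgeR adjusted p = 2.15e-10), with no overlap. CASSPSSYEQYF, whose counts are given above, followed with 1.96 ± 0.28 (edgeR adjusted p = 1.34e-09). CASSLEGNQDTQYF had 6, 5, 1 and 6 UMIs in spleen and 43, 44, 25 and 35 in tdLN (3.10 ± 0.48, edgeR adjusted p = 6.81e-08).

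The tdLN counts of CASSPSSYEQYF came mainly from Trbv3 forms that differ at the joint. Form a below had 18, 61, 23 and 81 UMIs in tdLN and 1, 0, 7 and 3 in spleen, and form b 3, 57, 3 and 6 in tdLN and 0 in every spleen.
Trbv3 form a: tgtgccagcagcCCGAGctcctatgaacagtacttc
Trbv3 form b: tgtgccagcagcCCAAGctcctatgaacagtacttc

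In 20 of the 28 the UMI shares of the 4 tdLN and the 4 spleen libraries did not overlap. All 4 tdLN shares were above all 4 spleen shares in 2.9% of all 7731 CDR3s tested and in 2.29% of the 3019 public ones, but the 28 were called on these same values, so nothing is read from their count. The 28 had log2 fold changes of 1.29 to 5.17, with a median of 2.08. Of them 18 began CASSL, as did 1070 of all public CDR3s (34.1%), and 8 began CASSLE, as did 51 of all. They were listed with a median of 8 forms per tdLN library and 3 per spleen library. The number of forms grows with the UMIs sampled, and how the UMIs were divided among the forms was not counted for the 28.

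Outside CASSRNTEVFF the tdLN-high sequences were mostly not high in tumors. The other 27 together held 0.162%, 0.136%, 0.128% and 0.139% of the UMIs in spleen, 0.524%, 0.519%, 0.494% and 0.491% in tdLN and 0.163%, 0.166%, 0.0915% and 0.154% in tumor. The anti-CSF1R tumor lay below all 4 spleens, the BF10 tumor within their range, and the control IgG and IL10-Fc tumors just above it. In 25 of the 27 no tumor share was above the highest tdLN share. Of the other 2, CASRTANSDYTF had 94 UMIs (0.0904%) in the control IgG tumor and 0, 0 and 13 in the other tumors, against at most 0.0290% in tdLN. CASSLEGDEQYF had 16 UMIs (0.0488%) in the anti-CSF1R tumor and 0, 2 and 4 in the others, against at most 0.0389% in tdLN. Since these sequences were chosen by the spleen and tdLN counts, only the tumor values are independent of the choice.

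**Figure D5:**
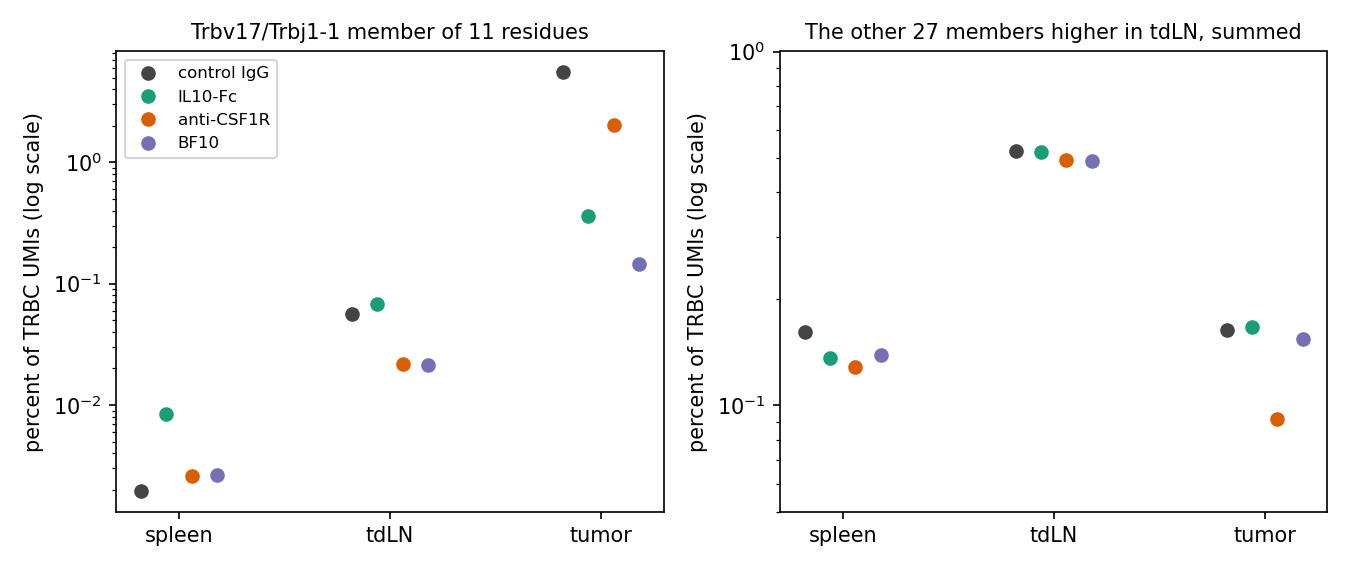
Percent of TRBC UMIs (log scale) in each library, by tissue and treatment, for the Trbv17 with Trbj1-1 CDR3 of 11 residues, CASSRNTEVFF (left), and for the other 27 public CDR3s higher in tdLN, summed (right). The left values climb from spleen to tdLN to tumor (up to 5.51%), while on the right the tdLN values, 0.491% to 0.524%, lie above both spleen and tumor.

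The 3 public CDR3s higher in spleen were closer to the limit. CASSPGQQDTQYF had 46, 63, 80 and 57 UMIs in spleen and 24, 25, 27 and 29 in tdLN (log2 fold change −1.19 ± 0.32, edgeR adjusted p = 0.0143), with no overlap. A CDR3 of 15 residues that joined Trbv12-1 to Trbj2-1 had 25, 53, 22 and 71 in spleen and 14, 20, 12 and 15 in tdLN (−1.34 ± 0.39, edgeR adjusted p = 0.0280). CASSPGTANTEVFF followed with −1.06 ± 0.33 (edgeR adjusted p = 0.0499). Its spleen share was above its tdLN share in all 4 treatments, by most under anti-CSF1R, at 0.0931% against 0.0185%.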

How the data were processed

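TCR libraries of CD8+ T cell RNA were prepared by the authors with a QIAseq mouse TCR kit (reverse transcription from the constant regions, UMI ligation), sequenced on a NextSeq instrument and analysed in Qiagen's portal. The kit software's version, error correction and germline reference are not given in the sources used here, and the submitters' processing notes name mm10. The authors deposited, for each clonotype, UMI counts at minimums of 3 to 7 reads, without normalization, and a fraction, which is a clonotype's UMIs with at least 3 reads over their total for the library and chain. Counts were used and the fraction was not.

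UMIs of 1 CDR3 amino acid sequence were summed over V, J and nucleotide forms within a library. Of the TRBC clonotypes 726 had an undetermined residue, none of them in a public CDR3. Listing at equal depth is the exact expectation of drawing the smallest total without replacement. Intervals are Wilson's (95%). Germline ends were matched for 26 V and 12 J segments, which covered 99.97% of clonotypes, and capitals count bases beyond both matches. The Trbv26 end was taken from the GENCODE M21 annotation and the others from RefSeq. Tests were exact permutations and edgeR 4.0.16, with DESeq2 1.42.0 as an alternative (R 4.3.3, Python 3.11.15, pandas 2.3.3, numpy 2.4.6, SciPy 1.17.1). On data simulated for tdLN against spleen, 44.2% of 8-fold and 66.7% of 16-fold changes were recovered among 7731 CDR3s, with 1 false call. The simulated counts had no treatment effect, so this does not give the error for CDR3s that were large in 1 library alone.

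The members, lists and tests were chosen with earlier results of these data known. Named CDR3s were the 10 with the highest mean share over spleen and tdLN, the 6 with the highest over tumors, the top one of each tumor, the 5 with most forms, the shortest and longest, the 3 highest absent from tumors, the 5 highest listed in 7 of 8, and the 5 V and 5 J segments with most members and 3 each with the largest differences. Other CDR3s, such as those of the tissue test, were named after their values were seen. CDR3s of 15 or more residues are named by V, J and length. The nucleotide forms given are a selection, and not every large one is reported here.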

Additional observations from a re-analysis of the deposited data

Results flagged for a closer look

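The share of TRBC UMIs in public CDR3s moved in opposite directions between tissues under anti-CSF1R relative to control IgG. It was higher by 0.5561 percentage points in spleen (15.7% against 15.2%) and differed by −1.1399 points in tdLN (13.4% against 14.6%) and by −8.19937 points in tumor (9.43% against 17.6%). Each is a difference of 2 single libraries whose 95% Wilson intervals were apart, and the difference between tissues was not tested. Without CDR3s of 0.1% or more the tumor shares were 15.4% and 15.1%.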

How the results depend on the processing

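Of 139 alternative values, 81 stayed within the bound used for their kind and 58 moved beyond it, some of them by little. The bound was 1.5 times for a count of CDR3s and the Wilson interval for a share. It was 1 SD for other values and the side of the threshold for a test. The sign-flip tests over 4 tumors could not go under 0.125, so their side of the threshold was fixed. A turn of direction was defined only for differences and ratios, and 0 turned. With UMIs of at least 7 reads there were 532 public CDR3s, which held 8.00%, 5.07%, 4.84% and 5.29% of the tumor UMIs (control IgG, IL10-Fc, anti-CSF1R, BF10) and were listed at equal depth at 37.5%, 70.9%, 15.4% and 76.2%. With at least 2 UMIs to be listed there were 1655, with 13.995%, 10.9%, 7.14% and 10.8% of the UMIs, listed at 22.1%, 46.5%, 11.2% and 49.5%, a median of 22 forms and a length difference of −1.03 residues. With V and J as part of the identity there were 750, with 6.85%, 2.75%, 3.39% and 2.58% of the UMIs, listed at 18.2%, 50.3% and 53.8% in the control IgG, IL10-Fc and BF10 tumors, a median of 8 forms, a length difference of −1.04 and a difference of −5 joint bases (reported, −4). Without thinning 30.1%, 81.8% and 91.4% were listed in these 3 tumors. Listed with a nucleotide form of the same treatment were 10.4%, 37.9%, 4.11% and 50.2%. Weighted by UMIs the differences were −0.80 residues and −2 bases, and against other CDR3s with at least 11 UMIs, an alternative chosen after seeing the data, −0.32 and −1. Without CDR3s of 0.1% or more the tumor shares moved to 15.1%, 14.7% and 15.4% in the control IgG, IL10-Fc and anti-CSF1R tumors. Leaving out 1 of the 8 libraries gave 3246 to 3853 public CDR3s. The causes were not tested.

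For tdLN against spleen (28 and 3 public CDR3s), the fit without the treatment block called 2 and 0, without TMM factors 15 and 8, DESeq2 11 and 1, and a minimum of 10 UMIs 21 and 0. Leaving out 1 treatment gave 8 to 26 in tdLN and 0 to 3 in spleen. With 1 library per treatment and tissue no treatments could be paired, and the treatments paired only the tissues, as in this test and in the comparison of same and other treatments. Mixed samples, 1 library a group and the low reads per UMI of the anti-CSF1R and BF10 tdLN libraries limit what the counts can resolve.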
